A study of Mus musculus with 16 samples.

Results

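The 113 odorant receptor genes described here are those whose array symbol runs from Olfr543 to Olfr693, symbols with the pseudogene mark -ps left out. They are the class I receptors that lie together on mouse chromosome 7, chosen by name and not by any measured value, and each has 1 probe set. They are 113 of the 1080 odorant receptor genes with a number and of the 19505 named genes on the arrays. The RefSeq gene table (GRCm38.p6) lists 119 such genes, and the other 6 were not analysed here. The label was checked against the receptor (MOR) family names in that table, in which families up to 42 are class I. Where a gene had several family names, the smallest number was taken. By this rule the label held for 109 of the 113. Of these, Olfr605 is named MOR24 but also MOR202, and Olfr592 is named both MOR0 and MOR32. Olfr652 (MOR318), Olfr681 (MOR4014) and Olfr693 (MOR283) carry other family numbers, and Olfr596 has no such name. Some members carry a further name of pseudogene form (-ps or a final P), among them Olfr566, Olfr592, Olfr596, Olfr612 and Olfr613.

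An olfactory sensory neuron expresses one odorant receptor gene, so the amount of a receptor's mRNA in a cell population follows both the number of neurons that chose it and the mRNA in each. Class I receptors are the older, fish-like branch of the family. In the mouse they form one large cluster on chromosome 7, are expressed mainly by dorsal neurons, share a long-range enhancer called the J element, and include receptors for carboxylic acids. Bcl11b is a transcription factor known in the mouse to bear on whether a neuron chooses a class I or a class II receptor.

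The study used S100a5-tauGFP mice, in which GFP is reported from S100a5, a calcium-binding protein gene of mature olfactory neurons whose expression follows their activity. Its 24 mice of both sexes, 7 to 12 weeks old, each spent 40 h in a clean air chamber at 3.1 L/min, and from 26 h on received 10 s pulses every 20 min of either 2-hexanone, a ketone, or filtered air as vehicle. Olfactory mucosa was dissociated and sorted into GFP+ and GFP- cells from 8 pools of 3 mice, and the RNA (50 to 100 ng) went onto 16 Clariom S arrays. The 4 groups of 4 arrays are odor GFP+, odor GFP-, vehicle GFP+ and vehicle GFP-. All groups carry the reporter, and no reporter-free mice are among them. Replicates are pools of separate mice, and GFP+ and GFP- cells with the same number come from the same mice. A fraction defined by GFP holds whatever other cells share that gate, and in bulk RNA fewer neurons with a receptor and less receptor mRNA per neuron cannot be told apart.

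The sort was first checked on the reporter's gene. S100a5 read 16.92, 16.83, 16.17 and 16.98 in odor GFP+ cells, against 15.18, 15.13, 14.89 and 15.23 in odor GFP- cells, on the deposited log2 scale. It was higher in GFP+ cells by 1.61 ± 0.25 with odor (SE; limma, adjusted p = 9.83e-05) and by 1.38 ± 0.25 with vehicle (adjusted p = 0.000514). Omp, the olfactory marker protein of mature olfactory neurons, differed by 0.09 ± 0.14 (limma, adjusted p = 0.733) with odor and 0.01 ± 0.14 (adjusted p = 0.988) with vehicle. It read 19.19 on vehicle GFP+ replicate 3, where the highest value of the array was 19.51. So near the top of the scale a difference could stay hidden, and equal shares of mature neurons were not shown. All 6 immune markers and all 4 immature neuron markers were lower in GFP+ cells in both treatments. The summed log2 signal of the immune markers spanned 33.54 to 35.13 in odor GFP+ and 81.66 to 84.42 in odor GFP- cells, and 30.32 to 37.25 in vehicle GFP+ and 74.69 to 87.35 in vehicle GFP- cells. For the immature neuron markers it spanned 29.78 to 32.94 in odor GFP+ and 41.51 to 43.65 in odor GFP- cells, and 29.20 to 32.41 in vehicle GFP+ and 42.10 to 43.97 in vehicle GFP- cells. All 4 sustentacular, 2 of 4 basal and dividing, and both measured erythroid markers were also lower in both treatments, while 1 (odor) and 2 (vehicle) of 5 mature neuron markers were higher. These values move with the sort differences below, and their part in them was not tested.

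Sequences are shown for members that were called in both treatments and whose RefSeq promoter window does not begin at the coding start, so that the bases lie before a mapped transcript start. Of the 113 members, 97 had a window in the RefSeq table (GRCm38.p6), and in 73 of these the window began at the coding start. The 250 bases before the start are given 5′ to 3′ on the strand of the gene for Olfr629 (chr7:103741323-103741572, minus strand), which was lower in GFP+ cells, and for Olfr550 (chr7:102578219-102578468, plus strand), Olfr651 (chr7:104552634-104552883, plus strand) and Olfr613 (chr7:103550118-103550367, plus strand), which were higher. Capitals mark matches on either strand to CCCNNGGG, as in Olf/Ebf sites, to the homeodomain core TAATNA or to TATAAA.
Olfr629: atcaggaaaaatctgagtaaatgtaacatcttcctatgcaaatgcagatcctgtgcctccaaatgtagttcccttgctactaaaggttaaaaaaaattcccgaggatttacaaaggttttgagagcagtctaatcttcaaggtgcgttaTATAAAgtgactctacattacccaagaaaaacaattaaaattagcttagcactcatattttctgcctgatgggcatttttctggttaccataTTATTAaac
Olfr550: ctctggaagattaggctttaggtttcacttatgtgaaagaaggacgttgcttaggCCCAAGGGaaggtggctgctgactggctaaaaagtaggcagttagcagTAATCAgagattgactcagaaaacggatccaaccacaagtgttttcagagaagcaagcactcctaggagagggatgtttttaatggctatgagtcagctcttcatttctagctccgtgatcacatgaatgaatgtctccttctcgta
Olfr651: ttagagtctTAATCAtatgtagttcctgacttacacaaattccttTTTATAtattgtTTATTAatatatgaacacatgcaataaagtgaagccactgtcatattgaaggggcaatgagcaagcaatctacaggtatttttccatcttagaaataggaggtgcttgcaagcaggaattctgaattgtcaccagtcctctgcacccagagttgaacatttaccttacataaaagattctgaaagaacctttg
Olfr613: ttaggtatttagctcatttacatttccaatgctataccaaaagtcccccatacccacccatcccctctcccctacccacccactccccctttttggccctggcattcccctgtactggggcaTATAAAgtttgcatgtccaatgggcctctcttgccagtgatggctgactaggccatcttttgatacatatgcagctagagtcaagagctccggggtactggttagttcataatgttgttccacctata

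The windows of Olfr629 and Olfr550 held 1 TAATNA each, that of Olfr651 held 2, and that of Olfr613 held none. TATAAA occurred once in the windows of Olfr629, Olfr651 and Olfr613, and CCCNNGGG once in that of Olfr550. Over all 97 windows TAATNA was found in 61.9% of the members, against 64.2% of 847 windows of other odorant receptors and 24.3% of all 32851 windows. Its palindromic form TAATTA, which is counted in TAATNA too, occurred in 14.4%, against 18.5% and 4.84%. TATAAA was present in 38.1% of the members, against 39.6% of other receptors and 12.4% of all windows, and CCCNNGGG in 3.09%, against 2.72% and 11.8%. The members' shares lay close to those of the other receptors for all 4 searches. Of these windows, 73 of the members' and 612 of the other receptors' began at the coding start. Their bases need not lie before a transcript start, so these shares do not describe promoters alone. In the 24 other windows of members TAATNA was present in 70.8%, TAATTA in 8.33%, TATAAA in 37.5% and CCCNNGGG in 8.33%. TAATNA was present in 66.7% of the 27 windows of members higher in GFP+ cells in both treatments and in 72.7% of the 11 windows of members lower in both. These matches are a description, without a test, and say nothing of binding.

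A probe set was counted as above background on an array where it exceeded the highest of 23 antigenomic probe bins of that array, a floor that lay between 6.16 and 7.33. By this measure 39 of the 113 receptors were above background on all 16 arrays, 56 on 1 to 15, and 18 on none. Between 67 and 81 members were above the floor on an odor GFP+ array and between 56 and 79 on an odor GFP- array, against 74 to 90 on a vehicle GFP+ array and 68 to 81 on a vehicle GFP- array. Olfr571, Olfr613 and Olfr651 were above it on all 8 GFP+ arrays and on no GFP- array. Olfr600, Olfr629, Olfr632, Olfr677 and Olfr686 showed the reverse, above the floor on all 8 GFP- arrays and on no GFP+ array. With the stricter 95th percentile of each array's negative controls, 8.53 to 9.47, 11 members were above background on all 16 arrays and 43 on none. Among the 43 are Olfr686 and, of other members called below, Olfr649, Olfr671, Olfr678 and Olfr691. The fold bounds below use the lower floor. The arrays' number limits precision, and no read depth applies. Receptor genes with near-identical copies could share probe signal, which was not tested.

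The first comparison asked which receptors were more abundant in GFP+ than in GFP- cells, that is, in the neurons in which the activity reporter was on. Under 2-hexanone 35 members were higher in GFP+ cells, 17 were lower and 61 did not pass (limma, two-sided, Benjamini-Hochberg adjusted p below 0.05 over 22206 probe sets). Over all 22206 probe sets 14.9% were called, 5.29% higher and 9.56% lower. Of the members 46.0% passed, while of the other 967 odorant receptors 59.4% did, 36.8% higher and 22.5% lower. The median difference was 0.36 over the members, 0.49 over the other receptors and 0.14 over all probe sets, and the members ranged from -7.94 to 4.27. With vehicle 39 members were higher, 15 were lower and 59 did not pass, against a background of 15.7% called (5.83% higher, 9.86% lower). Their shares were 34.5% and 13.3%, against 36.2% and 23.2% of the other receptors, and the medians were 0.56, 0.39 for the other receptors and 0.14 for all probe sets. No test of these shares against each other was made. The arrays of replicate 1 deviated from their group means together (correlation 0.425 between odor GFP+ and GFP- and 0.352 between vehicle GFP+ and GFP-). They also did so between odor and vehicle, though from different mice (0.419 in GFP+ and 0.354 in GFP- cells). Without both of these pools 29 members were higher and 19 lower with odor, and 38 higher and 16 lower with vehicle. The members' median exceeded that of all probe sets by 0.22 with odor and 0.42 with vehicle, and by 0.36 and 0.44 after quantile normalization over all arrays. Centring every array on its median adds the same amount to every probe set, which cannot alter this excess, and shifts the median of all probe sets to 0.49 and 0.50. After centring, 75.4% of the members' calls with odor and 79.7% with vehicle were higher, against 67.3% and 72.2% without it.

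The sort differences with odor and vehicle come from separate pools and share no array, though the replicate 1 arrays of both treatments deviated together (above). Of the 113 members, 33 were higher in both (3.03% of all probe sets were), 14 lower in both (8.37% of all probe sets), 12 passed in 1 treatment and 54 in neither, and none passed in opposite directions. The difference had the same sign in 104 members, as in 77.6% of all probe sets, and its Pearson r over the 113 was 0.98 (Spearman rho 0.97), a description over probe sets measured by the same probes. Over the 8 pools, 44 members were higher in GFP+ cells in every pool, 19 were lower in every pool and 50 were mixed, where 10.9% of all probe sets were higher and 10.9% lower in every pool. The lowest GFP+ array exceeded the highest GFP- array for 33 members with odor and 39 with vehicle, where 9.4% and 9.01% of all probe sets did so. The reverse held for 16 and 18, where 10.6% and 10% of all probe sets did so. Among the 967 other odorant receptors, GFP+ arrays all lay above GFP- arrays for 349 with odor and 325 with vehicle. They all lay below for 218 and 217, so such separation was not particular to the members.

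**Figure D1:**
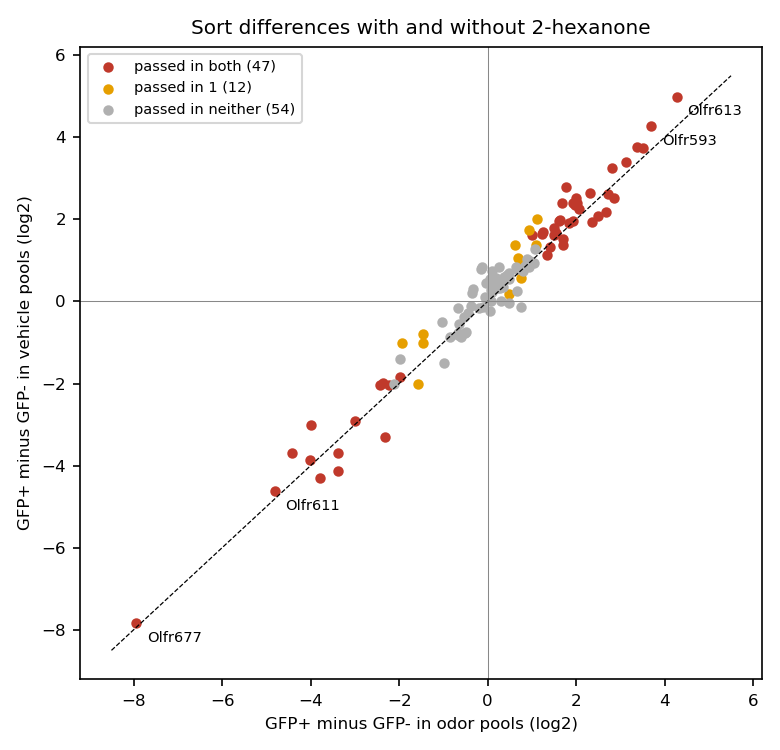
GFP+ minus GFP- difference (log2) of each of the 113 receptors in odor pools (horizontal) and vehicle pools (vertical); the dashed line marks equal differences and colours mark members that passed in both (47), in 1 (12) or in neither (54). Points lie near the line from Olfr677 at -7.94 and -7.83 to Olfr613 at 4.27 and 4.99.

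Olfr613 (MOR20) had the highest fitted difference among the members, which rests on GFP- values under the floor and so gives no rank. Its signal was 9.14, 9.15, 8.50 and 8.38 in odor GFP+ cells, against 4.37, 5.03, 3.99 and 4.71 in odor GFP- cells. With vehicle it was 10.04, 8.71, 9.44 and 8.39 in GFP+ cells, against 3.78, 4.44, 4.46 and 3.94 in GFP- cells. All GFP- arrays lay under their floor and no values overlapped. The difference was 4.27 ± 0.33 with odor (SE, adjusted p = 1.83e-08) and 4.99 ± 0.33 with vehicle (adjusted p = 2.66e-09), which bounds the fold at at least 4.23-fold higher and at least 6.02-fold higher. For a bound, each dim array counts at its floor or at its own value, whichever is higher. All folds stand on a deposited scale whose highest values pass the 16 bits of a scanner, so an unstated transformation acts on every difference and fold.

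Olfr593 (MOR24) read 10.05, 10.77, 10.14 and 10.47 in odor GFP+ cells, against 7.38, 5.67, 6.93 and 6.67 in odor GFP- cells. With vehicle it read 11.25, 10.60, 10.65 and 11.01 in GFP+ cells, against 7.67, 6.60, 6.42 and 5.74 in GFP- cells. The groups did not overlap, and 2 of 4 odor and 1 of 4 vehicle GFP- arrays were above the floor. The difference was 3.70 ± 0.37 (adjusted p = 4.93e-07) with odor and 4.27 ± 0.37 (adjusted p = 8.15e-08) with vehicle, or 3.39 and 4.08 with the other GFP- arrays raised to their floor, the highest of the members on that measure in both treatments. Olfr651 (MOR31) was above the floor on every GFP+ array, with 9.33, 8.92, 9.18 and 8.13 in odor GFP+ cells, against 5.35, 6.05, 4.64 and 6.04 in odor GFP- cells. With vehicle it was 9.47, 8.74, 9.38 and 9.09 in GFP+ cells, against 5.86, 5.90, 4.33 and 5.49 in GFP- cells. All GFP- arrays of Olfr651 lay under the floor, so the fold was at least 4.52-fold higher with odor and at least 6.12-fold higher with vehicle (differences 3.37 ± 0.37 and 3.77 ± 0.37, adjusted p = 1.76e-06 and 4.4e-07). Olfr644 (MOR13) rose by 3.52 ± 0.50 (adjusted p = 3.76e-05) and 3.73 ± 0.50 (adjusted p = 1.93e-05), and Olfr550 (MOR16) by 3.12 ± 0.36 (adjusted p = 3.98e-06) and 3.39 ± 0.36 (adjusted p = 1.46e-06). Olfr571 was higher by 2.85 ± 0.32 and 2.51 ± 0.32, at least 2.40-fold and at least 2.91-fold. The other members among the 15 highest fitted differences with odor were Olfr693 (below) and Olfr633, Olfr570, Olfr635, Olfr578, Olfr616, Olfr576, Olfr612 and Olfr608, which were higher by 2.72 down to 2.00. With vehicle they were Olfr693, Olfr649, Olfr616, Olfr633, Olfr608, Olfr617, Olfr689, Olfr612 and Olfr692, the last 8 higher by 2.80 down to 2.35.

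Olfr693, which carries a class II family name (MOR283) and lies beyond the last gap of the cluster, was above the floor on all 16 arrays. It read 12.13, 11.92, 12.10 and 12.10 in odor GFP+ cells, against 9.55, 9.02, 8.97 and 9.49 in odor GFP- cells. With vehicle it read 12.52, 12.63, 12.68 and 12.15 in GFP+ cells, against 9.79, 9.76, 9.61 and 7.79 in GFP- cells. No values overlapped, and the GFP+ signal was 6.98-fold higher with odor and 9.55-fold higher with vehicle (differences 2.80 ± 0.33 and 3.26 ± 0.33, adjusted p = 4.77e-06 and 7.75e-07). Among the 10 members of highest mean signal, Olfr566 was higher by 1.49 ± 0.25 and 1.63 ± 0.25 and Olfr592 by 1.49 ± 0.30 and 1.78 ± 0.30 (adjusted p = 0.000291, 0.000109, 0.00134 and 0.000237), 2.80-fold to 3.43-fold. In the same set Olfr552 (-0.66 ± 0.34, adjusted p = 0.24; -0.17 ± 0.34, adjusted p = 0.794), Olfr549 (-0.36 ± 0.29 and 0.20 ± 0.29) and Olfr679 (0.11 ± 0.43 and 0.74 ± 0.43) did not pass.

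Olfr677 (MOR32) had the lowest fitted difference among the members, which rests on GFP+ values under the floor and so gives no rank. It read 4.99, 3.49, 3.23 and 3.27 in odor GFP+ cells, against 12.28, 11.99, 11.28 and 11.19 in odor GFP- cells. With vehicle it read 4.00, 3.28, 3.64 and 4.85 in GFP+ cells, against 12.85, 11.58, 11.64 and 11.01 in GFP- cells. Every GFP+ array lay under the floor and every GFP- array far above it, so the receptor was at least 31.0-fold lower with odor (-7.94 ± 0.44, adjusted p = 3.05e-10) and at least 39.8-fold lower with vehicle (-7.83 ± 0.44, adjusted p = 3.68e-10). Olfr672, a second MOR32 receptor in the same run, was above the floor on all 16 arrays. It read 9.82, 10.40, 9.77 and 8.78 in odor GFP+ cells, against 13.43, 14.06, 13.41 and 13.94 in odor GFP- cells. With vehicle it read 10.30, 9.75, 10.31 and 9.19 in GFP+ cells, against 14.02, 13.58, 13.60 and 13.76 in GFP- cells. The groups did not overlap, and both fractions held measurable signal: GFP+ cells were 16.2-fold lower with odor (-4.02 ± 0.31, adjusted p = 1.83e-08) and 14.5-fold lower with vehicle (-3.86 ± 0.31, adjusted p = 3.16e-08).

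Olfr611 (MOR15) read 5.27, 5.41, 3.52 and 5.19 in odor GFP+ cells, against 10.56, 9.99, 8.84 and 9.23 in odor GFP- cells. With vehicle it read 6.20, 4.72, 3.73 and 6.16 in GFP+ cells, against 10.30, 10.19, 9.44 and 9.33 in GFP- cells. The difference was -4.81 ± 0.53 with odor (adjusted p = 1.94e-06, at least 7.59-fold lower) and -4.62 ± 0.53 with vehicle (adjusted p = 3.17e-06), where 1 GFP+ array was above the floor and raising the others to it left -3.35. Olfr629 (MOR26) was lower by -4.43 ± 0.28 with odor and -3.68 ± 0.28 with vehicle (adjusted p = 2.08e-09 and 2.29e-08), at least 3.22-fold and at least 3.46-fold lower. Olfr596, measured on all 16 arrays, was 10.5-fold lower with odor (-3.39 ± 0.51, adjusted p = 7.33e-05) and 17.4-fold lower with vehicle (-4.12 ± 0.51, adjusted p = 7.82e-06). Olfr632 (-3.79 ± 0.54 and -4.29 ± 0.54), Olfr600 (-3.39 ± 0.42 and -3.70 ± 0.42), Olfr686 (-3.98 ± 0.30 and -3.00 ± 0.30), Olfr603 (-2.31 ± 0.44 and -3.29 ± 0.44) and Olfr681 (-3.00 ± 0.50 and -2.91 ± 0.50) passed in both treatments too.

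**Figure D2:**
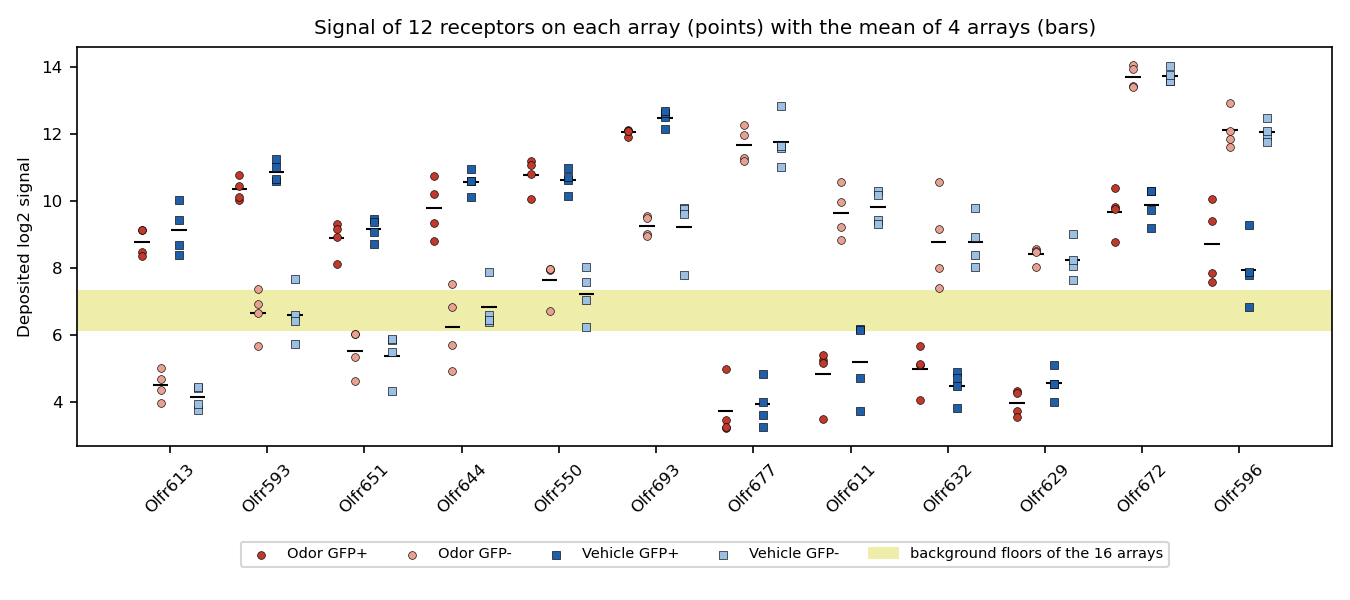
Deposited log2 signal of 12 receptors on each of the 16 arrays (points; odor GFP+, odor GFP-, vehicle GFP+, vehicle GFP-), with the mean of 4 arrays as a bar and the floors of 6.16 to 7.33 shaded. The 6 on the left (Olfr613 to Olfr693) are higher in GFP+ and the 6 on the right (Olfr677 to Olfr596) lower, with no overlap within a treatment.

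Several members have ligands or expression sites known outside these data. Olfr544 and Olfr545, known in the mouse as receptors for dicarboxylic acids such as azelaic acid, did not pass: Olfr544 differed by 0.10 ± 0.40 (adjusted p = 0.903) with odor and 0.23 ± 0.40 (adjusted p = 0.76) with vehicle, and Olfr545 by -0.68 ± 0.32 (adjusted p = 0.179) and -0.76 ± 0.32 (adjusted p = 0.122). Olfr545 was lower in GFP+ cells in every pool, and with the pool as a fixed block it passed in both (adjusted p = 0.031 and 0.0171). Olfr558, the mouse ortholog of human OR51E1, was not above the floor on any array (0.24 ± 0.29 and 0.33 ± 0.29). Olfr691 was higher with vehicle by 2.01 ± 0.46 (adjusted p = 0.00413, at least 2.85-fold), while its difference with odor was 1.12 ± 0.46 (adjusted p = 0.119; 0.0219 with the pool as a fixed block). Olfr692, known in the mouse also from vomeronasal neurons, was higher by 1.98 ± 0.28 (adjusted p = 4.07e-05) and 2.35 ± 0.28 (adjusted p = 5.38e-06). Of the 3 vomeronasal markers listed, 2 were measured and neither passed in either treatment.

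Among the 45 MOR families, 6 have 5 or more members here, and MOR31 and MOR32 held most of their calls on opposite sides. In MOR31 (10 members) 5 were higher and none lower with odor, and 6 higher and none lower with vehicle; the medians were 1.37 and 1.94. Olfr651 (above), Olfr617 (1.92 ± 0.27, adjusted p = 3.12e-05, and 2.41 ± 0.27, adjusted p = 2.01e-06), Olfr618, Olfr648 and Olfr649 passed in both treatments. MOR32 (10 members) had 1 higher and 5 lower in each treatment, with medians of -1.41 and -1.38. The lower members were Olfr603, Olfr671, Olfr672, Olfr677 and Olfr678, and the higher one was Olfr670 (1.22 ± 0.33, adjusted p = 0.0164, and 1.65 ± 0.33, adjusted p = 0.00142). Olfr592, named both MOR0 and MOR32, was filed under MOR0, the smaller number, and is not counted in MOR32. It was higher in GFP+ cells in both treatments (1.49 ± 0.30 and 1.78 ± 0.30). Olfr690 of MOR31 had a difference of -1.98 ± 0.79 with odor (adjusted p = 0.108) and -1.39 ± 0.79 with vehicle (adjusted p = 0.271). In MOR40 (8 members) 3 were higher with odor and 2 with vehicle, and in the same order in MOR34 (7 members) 2 and 2, in MOR14 (7) 1 and 1, and in MOR13 (5) 1 and 2, with none lower in these 4 families. Of the odorant receptors other than the members, 36.8% were higher and 22.5% lower with odor, and 36.2% and 23.2% with vehicle. The family counts were not tested against these shares. Members of a family can share probe sequence and are not independent, and no test was made between families.

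**Figure D3:**
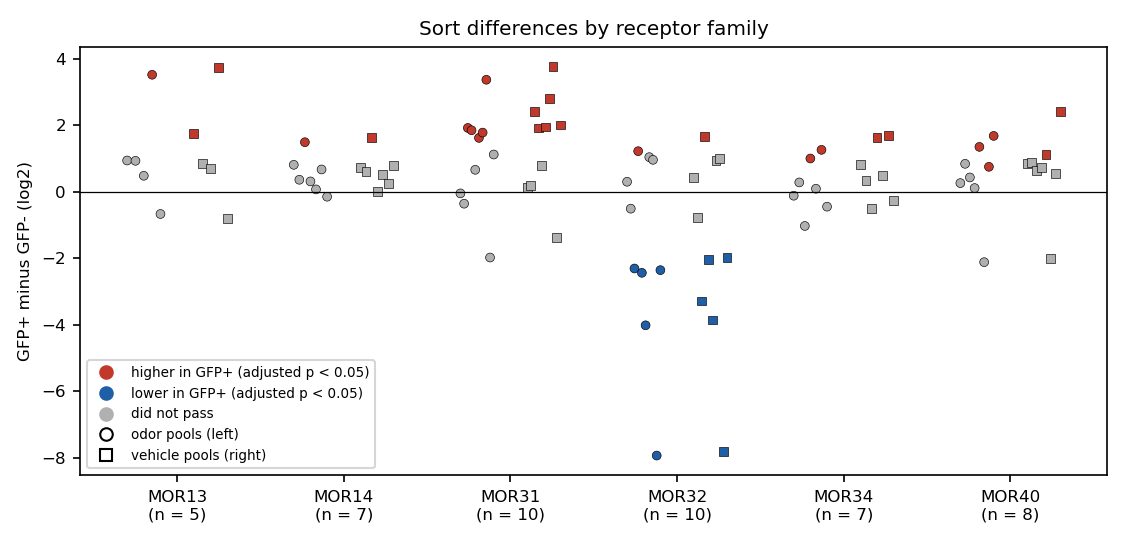
GFP+ minus GFP- difference (log2) of the members of the 6 families with 5 or more members, in odor pools (circles) and vehicle pools (squares); red and blue mark members that passed higher and lower. MOR32 holds 5 lower members in each treatment, and MOR31 5 and 6 higher ones.

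The members form 10 runs along the chromosome, separated by 48 protein-coding genes that are not receptors, of which 38 were measured. The run of 7 from Olfr596 to Olfr603 had none higher and 3 lower in both treatments (medians -0.86 and -0.87), whereas the run of 26 from Olfr557 to Olfr594 had 11 higher and 1 lower with odor and 12 higher and 1 lower with vehicle. The run of 23 from Olfr665 to Olfr692 was mixed, with 7 higher and 6 lower with odor and 8 higher and 6 lower with vehicle, and the run of 5 from Olfr543 to Olfr549 had none called. The run counts were not tested against the shares of the other odorant receptors (36.8% and 36.2% higher, 22.5% and 23.2% lower). Of 103 adjacent pairs, 16 had both members called in both treatments, 11 in the same direction and 5 in opposite ones. As 33 members were higher and 14 lower in both treatments, many pairs share a direction in any order, and this was not tested. Members count as adjacent where no non-receptor gene lies between them, and receptors that are not members can lie there. The opposite pairs were Olfr611 with Olfr612, Olfr632 with Olfr633, Olfr654 with Olfr655, Olfr670 with Olfr671, and Olfr681 with Olfr683. Olfr655, lower by -1.99 ± 0.53 with odor (adjusted p = 0.0136) and -1.83 ± 0.53 with vehicle (adjusted p = 0.0223), lies next to Olfr654, higher by 1.55 ± 0.41 (adjusted p = 0.015) and 1.67 ± 0.41 (adjusted p = 0.00862). The call of Olfr655 was lost without odor replicate 2, 3 or 4 (adjusted p = 0.0721, 0.051 and 0.0649) and, with vehicle, without vehicle replicate 2 or 4 (0.0511 and 0.135).

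**Figure D4:**
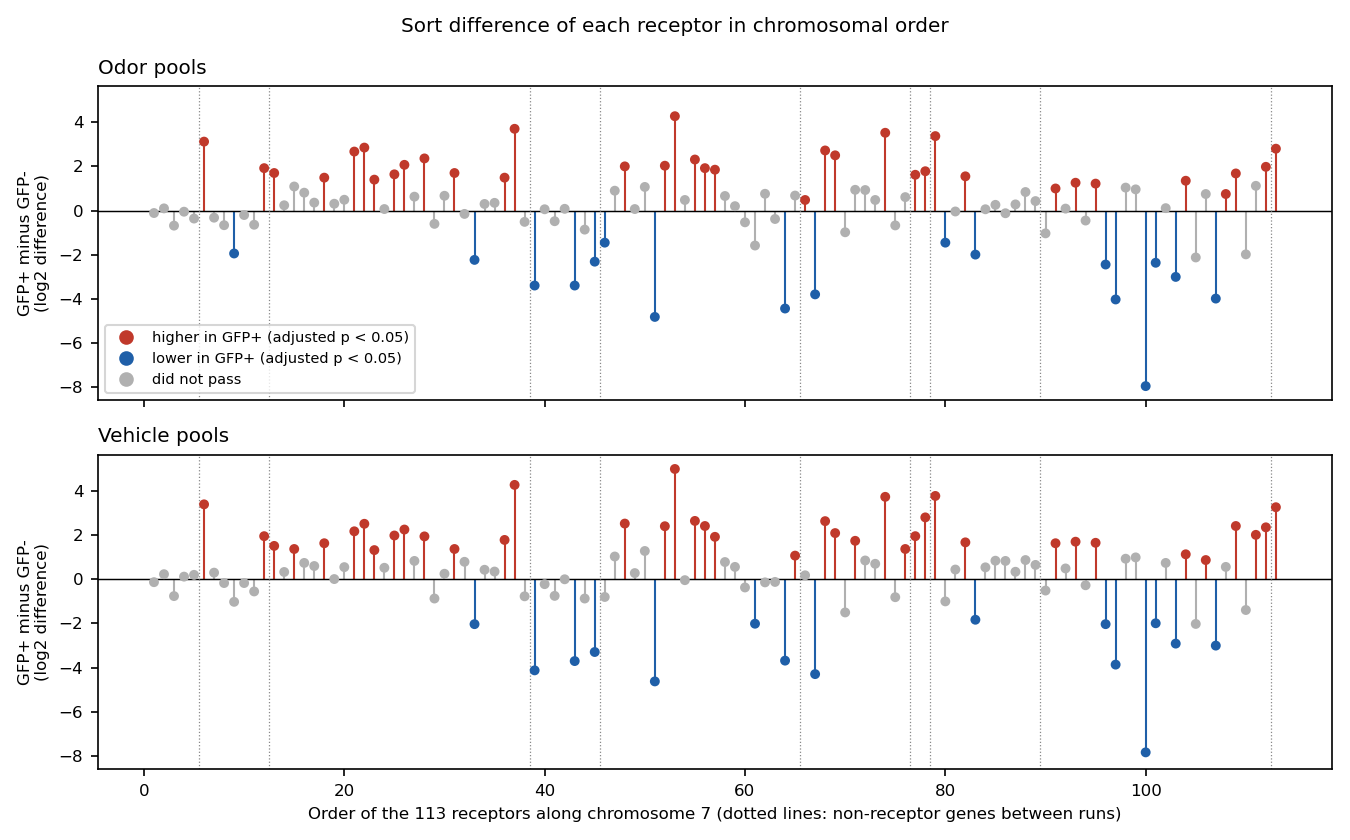
GFP+ minus GFP- difference (log2) of the 113 receptors in their order along chromosome 7, with odor pools above and vehicle pools below; red and blue mark members that passed higher (35 and 39) and lower (17 and 15), and dotted lines mark gaps between runs. Higher and lower members both occur along the cluster (of 16 adjacent pairs called in both treatments, 11 share a direction), with Olfr677 the lowest at -7.94 and -7.83.

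Of the 9 receptors of other numbers between the members, 8 were measured. Olfr68 and Olfr69 were lower in both treatments: Olfr69 by -5.98 ± 0.31 (adjusted p = 1.66e-10) with odor and -6.68 ± 0.31 (adjusted p = 5.58e-11) with vehicle, and Olfr68 by -5.36 ± 0.29 (adjusted p = 2.14e-10) and -6.04 ± 0.29 (adjusted p = 6.64e-11). Olfr33 was higher with odor (1.27 ± 0.38, adjusted p = 0.0276), and Olfr66 (1.26 ± 0.27, adjusted p = 0.0029) and Olfr67 (1.72 ± 0.46, adjusted p = 0.0147) with vehicle. The 19 measured receptors from Olfr694 to Olfr719, which follow on chromosome 7, had 9 higher and 0 lower with odor and 10 higher and 1 lower with vehicle. Over all odorant receptors other than the members 36.8% (odor) and 36.2% (vehicle) were higher, and 22.5% and 23.2% lower. Over all probe sets 5.29% and 5.83% were higher, and 9.56% and 9.86% lower. Of the 38 other genes between the members, 17 were above the floor on at least 1 array, and 0 were higher and 5 lower with odor, and 1 higher and 6 lower with vehicle. These counts were not tested against the shares of all probe sets. The lower genes lay under the floor on every GFP+ array, so only bounds can be given. Gm1966 was at least 3.67-fold lower with odor and at least 3.87-fold lower with vehicle, Trim12a at least 1.91-fold and at least 2.33-fold, and Gvin1, known in the mouse as interferon-responsive, at least 1.58-fold and at least 1.43-fold. Trim12c and Trim30a passed as lower in both treatments, but no fold can be given. Trim12c was above the floor on 0 of 4 odor and 1 of 4 vehicle GFP- arrays, and Trim30a on 1 of 4 in each treatment. Trim30b, lower with vehicle, and Gm5901, the higher one with vehicle, were under the floor in both groups. The embryonic and fetal globin genes Hbb-bh1, Hbb-bh2 and Hbb-y were not above the floor on any array. Cnga4, a subunit of the olfactory cyclic nucleotide-gated channel that lies among these genes, differed by 0.21 ± 0.16 (adjusted p = 0.422) and 0.09 ± 0.16 (adjusted p = 0.757).

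Of 21 genes known to act in receptor choice or receptor trafficking, 0 were higher and 1 lower with odor, and 1 higher and 1 lower with vehicle. Over all probe sets 5.29% (odor) and 5.83% (vehicle) were higher, and 9.56% and 9.86% lower. The lower gene was Lbr, the lamin B receptor of the nuclear envelope (-2.18 ± 0.30, adjusted p = 2.41e-05, and -2.06 ± 0.30, adjusted p = 4.71e-05), and the higher one with vehicle was Adcy3, the olfactory adenylyl cyclase (0.50 ± 0.14, adjusted p = 0.0229). The call of Adcy3 was lost without vehicle replicate 1, 2 or 4 (limma, adjusted p = 0.114, 0.073 and 0.103), without both replicate 1 pools (0.126) and in a fit of the vehicle arrays alone (0.076). Bcl11b read 11.17, 10.96, 11.10 and 10.65 in odor GFP+ cells, against 10.90, 10.98, 11.19 and 10.51 in odor GFP- cells. The groups overlapped, and its difference was 0.07 ± 0.22 (adjusted p = 0.878) with odor and 0.39 ± 0.22 (adjusted p = 0.273) with vehicle. Among genes tied to zones or axon sorting, none of Nqo1, Acsm4, Robo2, Tbx3 and Cntn4 passed. Of Ncam2, Nrp2, Slit1 and Sema3f, Ncam2 (0.54 ± 0.17, limma, adjusted p = 0.0414) and Slit1 (0.70 ± 0.19, adjusted p = 0.0184) were higher with odor. Slit1 was also higher with vehicle (0.66 ± 0.19, adjusted p = 0.0252). These calls depended on single pools and settings. That of Ncam2 was lost under 10 of 19 alternatives, among them the fixed pool block (limma, adjusted p = 0.0548), quantile normalization (0.0509) and leaving out odor replicate 1, 2, 3 or 4 (0.123, 0.0798, 0.149 and 0.142). That of Slit1 with odor was lost without odor replicate 2 or 4 (0.117 and 0.099), and with vehicle without vehicle replicate 1, 2 or 4 (0.0611, 0.0908 and 0.186) and in a fit of the vehicle arrays alone (0.0555).

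The second comparison asked what 2-hexanone did to the receptors within each sorted fraction. In GFP+ cells 0 of the 113 members passed against vehicle GFP+ cells (limma), where 0.00901% of all probe sets did (2, both higher), and 4 members had an unadjusted p below 0.05, 1 higher and 3 lower, as 3.91% of all probe sets did. The member differences ranged from -1.22 to 0.93, with a median of -0.21, against 0.03 for the other odorant receptors and 0.00 for all probe sets, and 81 of 113 were below 0. The median signal of the 113 members on an array spanned 7.19 to 8.61 in odor GFP+ cells and 7.94 to 8.37 in vehicle GFP+ cells, so the groups overlapped. The members' median difference depended on single pools. It was -0.43 without odor replicate 1, -0.35 without odor replicate 2, -0.03 without odor replicate 4 and -0.14 without vehicle replicate 1. The 95% interval of a member's difference, not adjusted for the number of probe sets, had a median half-width of 0.79. Smaller changes could not be resolved, and larger ones could also miss the adjusted threshold.

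The 4 members of unadjusted p below 0.05 were Olfr686 (-0.81 ± 0.30), Olfr691 (-1.22 ± 0.46), Olfr559 (-0.99 ± 0.41) and Olfr603 (0.93 ± 0.44), each with an adjusted p of 1 in the limma fit. Olfr691 read 7.56, 7.57, 6.10 and 6.17 in odor GFP+ cells, against 7.60, 8.46, 7.93 and 8.27 in vehicle GFP+ cells. Its groups did not overlap, and its 95% interval ran from -2.18 to -0.26. Of all 113 members, 2 had odor GFP+ arrays all below the vehicle ones and none all above, where 1% and 1.01% of all probe sets did so.

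**Figure D5:**
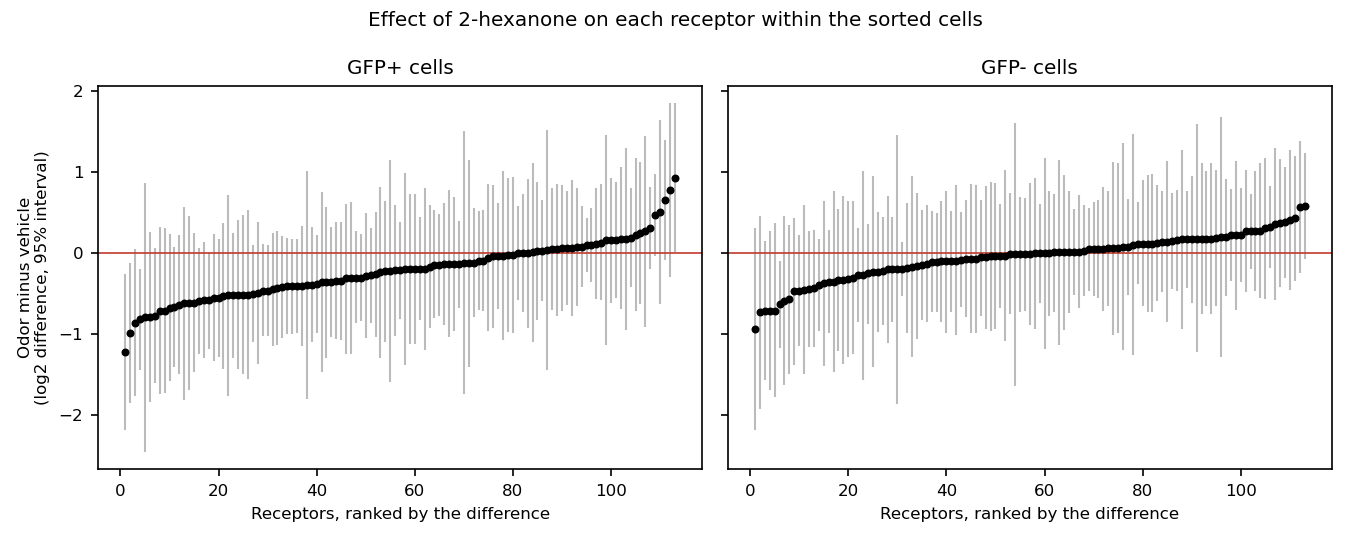
Odor minus vehicle difference (log2) of each of the 113 receptors within GFP+ cells (left) and GFP- cells (right), ranked, with its 95% interval (grey). Differences run from -1.22 to 0.93 in GFP+ and from -0.94 to 0.58 in GFP- cells, and no member passed the adjusted test.

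In GFP- cells 0 members passed against vehicle GFP- cells (limma; 0% of all probe sets passed), and 1, Olfr584 (-0.63 ± 0.26, adjusted p of 1), had an unadjusted p below 0.05, as 2.46% of all probe sets did. The median difference was -0.01 and the range -0.94 to 0.58. Array medians of the members spanned 6.73 to 7.86 in odor GFP- cells and 7.06 to 8.18 in vehicle GFP- cells.

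The third comparison asked whether 2-hexanone changed the sort difference. It passed for 0 of the 113 members (limma), where 0.00901% of all probe sets passed, and 1 member, Olfr686 (-0.97 ± 0.42, adjusted p of 1), had an unadjusted p below 0.05, as 2.93% of all probe sets did. The median change was -0.17, the range -1.02 to 0.97, and the median 95% half-width 1.12. For the 12 members that passed in 1 treatment alone, the change itself had an adjusted p of 1, so the treatments were not shown to differ: they were Olfr553, Olfr605, Olfr631, Olfr652 and Olfr688 (odor) and Olfr559, Olfr623, Olfr630, Olfr640, Olfr646, Olfr685 and Olfr691 (vehicle). Of these, Olfr630, Olfr631 and Olfr688 were above the floor on no array. Olfr652 also passed with vehicle with the pool as a random block (adjusted p = 0.0312; 0.0516 without it).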

How the data were processed

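RNA of GFP+ and GFP- cells was measured on 16 Clariom S arrays. Per the submitters' processing notes, the deposited log2 signals came from Affymetrix Expression Console, whose version is not given in the sources used here, nor are its summarisation and annotation build. Of 28846 rows, 6640 control rows were left out and 22206 tested; 19572 had 1 gene symbol, 0 had several and 2634 had none. No value column lacked a sample. The arrays all differed, with a Pearson r of at most 0.992 between any pair.

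Groups came from the sample titles. Tests used limma 3.58.1 in R 4.3.3 (lmFit and eBayes) with 4 group means, no covariate and 12 residual degrees of freedom, called at Benjamini-Hochberg adjusted p below 0.05 over all probe sets, and were tested on simulated data. Other steps used Python 3.11.15 and matplotlib 3.10.9. Where all arrays of the dimmer group lay under their floor, a fold is a bound. Alternatives were blocks, scaling, filters on low values, priors, weights, fewer arrays, each pool left out, both replicate 1 pools left out and a count of members above the floor on at least 4 arrays (the last pair chosen after seeing the data).

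GFP+ and GFP- cells of a pool share mice per the labels, which pairs them; deviations from the group means correlated by 0.0136 to 0.425 within a pool. The members and lists were chosen with earlier results of these data known. Named members were the 15 highest and 10 lowest called sort differences, the 5 of lowest p elsewhere, 5 known receptors, the 10 of highest mean and the genes of the lists. Receptor names, families and order came from the RefSeq gene table of GRCm38.p6, to which all 113 members matched.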

Additional observations from a re-analysis of the deposited data

Results flagged for a closer look

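Within a group of 4 arrays, 1 array stood apart from the others (by Dixon's test of its gap to the nearest over the group's range) in 13 of 204 groups over 51 genes, and chance gives about 1 in 20. In odor GFP+ cells these were Olfr611 in replicate 3 (3.52), Olfr677 in replicate 1 (4.99), Olfr679 in replicate 4 (10.53) and Olfr693 in replicate 2 (11.92). In odor GFP- cells they were Olfr550 (6.73) and Olfr655 (12.51), both in replicate 4. In vehicle GFP+ cells it was Omp in replicate 3 (19.19). In vehicle GFP- cells they were Olfr549 (11.87), Olfr558 (4.89) and Olfr693 (7.79) in replicate 4, Olfr598 in replicate 3 (12.58), and Olfr635 (9.85) and Olfr644 (7.89) in replicate 1. The values of Olfr550, Olfr558, Olfr611 and Olfr677 lay under the background floor.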

How the results depend on the processing

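Each array centred on its median gave a median member difference of 0.71 with odor (0.36 without centring) and 0.92 with vehicle (0.56 without), and 52 members higher with odor (35 without) and 59 with vehicle (39 without). Centring also raised the median of all probe sets. Leaving out each pool in turn gave 25 to 35 members higher and 15 to 18 lower with odor, and 28 to 39 higher and 13 to 17 lower with vehicle. It gave median odor effects of -0.43 to -0.03 in GFP+ cells and -0.15 to 0.15 in GFP- cells, and a median change of -0.30 to 0.01. Without both replicate 1 pools 29 were higher and 19 lower with odor, and 38 and 16 with vehicle. Restricting to members above the floor on at least 4 arrays left 31 and 17, and 36 and 15. With the pool as a random replicate block 36 were higher and 19 lower with odor, and 42 and 21 with vehicle; as a fixed block 40 and 22, and 46 and 22. The replicate number as a fixed block gave 36 and 21, and 45 and 22. By the labels it pairs no mice between odor and vehicle. Deviations of odor and vehicle arrays with the same number correlated by 0.0492 to 0.419 in GFP+ and 0.031 to 0.354 in GFP- cells. Both were highest for replicate 1, and the labels do not state what these arrays share. No member passed for an odor effect or its change under the alternatives run, of 19 in all (the fixed pool block cannot give an odor effect).

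Of 248 named results, none reversed. Of 87 that passed, 72 did so under every alternative and 15 were lost under at least 1, among them Olfr655, Ncam2, Slit1 and Adcy3 as given with their results. With odor, Olfr576 was lost without odor replicate 2 (limma, adjusted p = 0.0658), Olfr578 without odor replicate 2 or 4 (0.0568 and 0.0779), Olfr616 without odor replicate 3 (0.102) and Olfr33 without odor replicate 2 or 3 (0.126 and 0.0974), without both replicate 1 pools (0.0557) and in a fit of the odor arrays alone (0.0612). With vehicle, Olfr616 was lost without vehicle replicate 2 or 4 (0.0519 and 0.0732), as were Olfr67 (0.109 and 0.0674) and Olfr685 (0.253 and 0.213, against 0.0489 with all pools). Olfr685 was also lost after quantile normalization (0.0639), with array weights (0.0524), in a fit of the vehicle arrays alone (0.0678) and without odor replicate 1, 3 or 4 (0.0557, 0.0655 and 0.0505). The vehicle call of Trim30b was lost without vehicle replicate 2, 3 or 4 (0.171, 0.0793 and 0.0685), without both replicate 1 pools (0.0684) and after centring (0.118), and that of Gm5901 without vehicle replicate 4 (0.137). A further 78 passed under at least 1 alternative. The mean of probe sets was no alternative, as each member has 1. Values near the floor limit what the dim members show.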
